A study of Rattus with 8 samples.

Results

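Lysosome genes were followed in cultures of rat neural stem cells, which renew themselves and can give rise to neurons and glia. The 49 genes were taken from the expression table by symbol, from a list of lysosomal enzymes, membrane proteins, proton pump subunits, sorting receptors and the transcription factors that control them. The rule uses no measured value, but the list was drawn up with earlier results of these data known. All 49 symbols were found among the 18374 genes of the table, and all 49 passed the filter on low counts that left 14336 genes to test. RNA sequencing had been done on day 5 in 8 libraries, 2 in each of 4 groups. Nanosticker cells were cultured with piezoelectric nanostickers, ultrasound cells were treated with ultrasound, piezoelectric cells were cultured with a piezoelectric material that the labels do not name, and control cells were left untreated. A piezoelectric material turns mechanical strain into electric charge. Whether ultrasound was also applied to the nanosticker cells is not stated in the labels, which give no strain, age or sex of the rats either. They do not tie the 2 samples of each group to different cultures or animals, and p-values therefore measure only how far these samples spread, possibly a technical spread.

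The lysosome is the acidic compartment in which cells break down proteins, lipids, glycans and worn organelles. A vacuolar proton pump keeps it acidic, soluble hydrolases reach it on mannose 6-phosphate receptors, and heavily glycosylated proteins line its membrane. Tfeb, Tfe3 and Mitf are related transcription factors that bind a shared motif in the promoters of many lysosomal and autophagy genes. Their nuclear entry is held back by phosphorylation when the kinase complex mTORC1 is active on the lysosomal surface. In the brain, lysosomal enzymes are abundant in microglia, and their loss causes storage diseases in which neurons and myelin-forming oligodendrocytes suffer.

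The libraries were close in depth, at 15239133 to 15628667 counts each. None of 8 neural stem cell markers was at 0 in any nanosticker or control library. The same held for the astrocyte, oligodendrocyte, neuron, fibroblast and choroid plexus lists, so it does not single out the labelled cell type. The 8 neural stem cell markers summed to 7889.59 and 8124 TPM in nanosticker and 10729 and 10208 TPM in control cells. Of them, Sox2 and Mki67 were called higher and Pax6, Hes5 and Fabp7 lower in nanosticker cells. Markers of other cell types differed between the groups as well. Summed over 8 oligodendrocyte markers, expression in TPM (transcript abundance scaled for transcript length and library size) was 19262 and 19154 in nanosticker cells, 7632 and 7576 in ultrasound cells, 6066 and 6077 in piezoelectric cells and 5888 and 6317 in control cells. All 8 of these markers were called higher in nanosticker than in control cells by edgeR. The opposite held for 14 microglia and macrophage markers, which summed to 14.5 and 9.79 TPM in nanosticker cells, 80.5 and 68.3 TPM in ultrasound cells, 60.2 and 57.7 TPM in piezoelectric cells and 93.8 and 79.4 TPM in control cells. Of these 14, 11 were called lower in nanosticker cells, Cx3cr1 was at 0 in both nanosticker libraries, and Itgam, Ptprc and Tyrobp were at 0 in 1 of them. The summed level of 8 astrocyte markers was 2091 and 2082 TPM in nanosticker and 3733 and 3849 TPM in control cells, and that of 8 neuron markers 393 and 384 TPM in nanosticker and 681 and 675 TPM in control cells, with 7 astrocyte and 6 neuron markers called lower and 1 neuron marker called higher. Of 11 tested fibroblast and meningeal markers, 5 were called higher, among them Lum, Thbs2 and Col3a1, and 1 lower, and the 12 on the list summed to 251 and 252 TPM in nanosticker and 191 and 226 TPM in control cells. Of 9 choroid plexus and ependyma markers, 1 was called higher and 1 lower, and of 3 endothelial markers 2 were called higher. In bulk RNA, fewer cells of a type and less RNA per cell cannot be told apart. The part of these markers in the lysosomal results was not tested. The 2 control libraries also differed from each other along transcript length, with a Spearman correlation of -0.57 across 11024 genes between length and the ratio of replicate 1 to replicate 2, against 0.15 to 0.24 in the treated groups, and -0.53 across the 49 lysosome genes. These correlations are descriptions across genes of the same libraries. In fits with the trend removed, no call among the 49 given below was lost in any comparison, and further calls were gained. The cause of the trend was not tested.

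**Figure D1:**
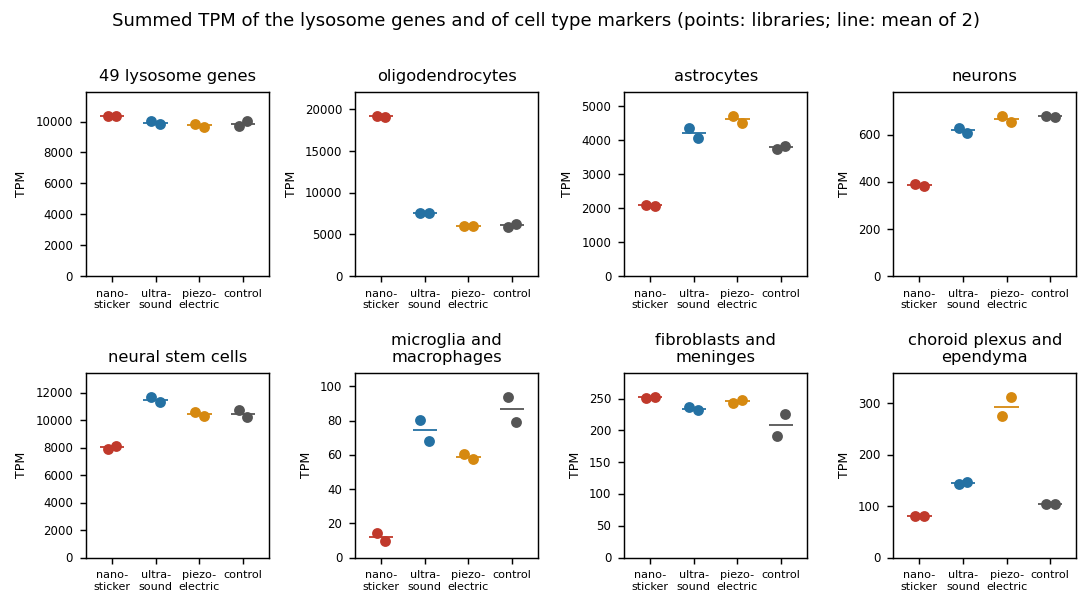
Summed TPM of the 49 lysosome genes and of 7 lists of cell type markers, 1 point per library and a line at the mean of 2, with nanosticker cells at the left and control cells at the right. The lysosome sum is nearly level across the libraries, the oligodendrocyte sum is highest in nanosticker cells and the microglia sum is lowest there.

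Of the 49 lysosome genes, 24 rose and 4 fell in nanosticker against control cells, and 21 did not pass the test (edgeR quasi-likelihood test, Benjamini-Hochberg adjusted p below 0.05). Over all tested genes, 37.5% were called in this comparison, 19.8% as higher and 17.7% as lower. Lysosome genes are well expressed, and among the 11033 genes with a mean count of at least 100, which include 47 of the 49, the share called was 40.6%. The median log2 fold change was 0.22 over the 49 and 0.006 over all tested genes, and 41 of the 49 had a positive value. The rises were modest, the largest being 1.01 on the log2 scale for Arsb, and none of the 5 proton pump genes passed the test. Of the 5 most abundant genes in control cells, Lamp1, Cd63 and Ctsb rose, Psap fell and Ctsd did not pass the test. The summed level of the 49 was 10382.6 and 10372.2 TPM in nanosticker cells, against 9701 and 10007 TPM in control cells. Without Psap, the most abundant of them in control cells, the sums were 9271 and 9240.06 TPM in nanosticker cells, against 8252 and 8429 TPM in control cells. The authors' annotation places 121 genes of the table in the KEGG lysosome pathway, 42 of them among the 49. Of the other 79, 69 were tested, 20 of which rose and 10 fell in nanosticker cells, with a median log2 fold change of 0.04.

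**Figure D2:**
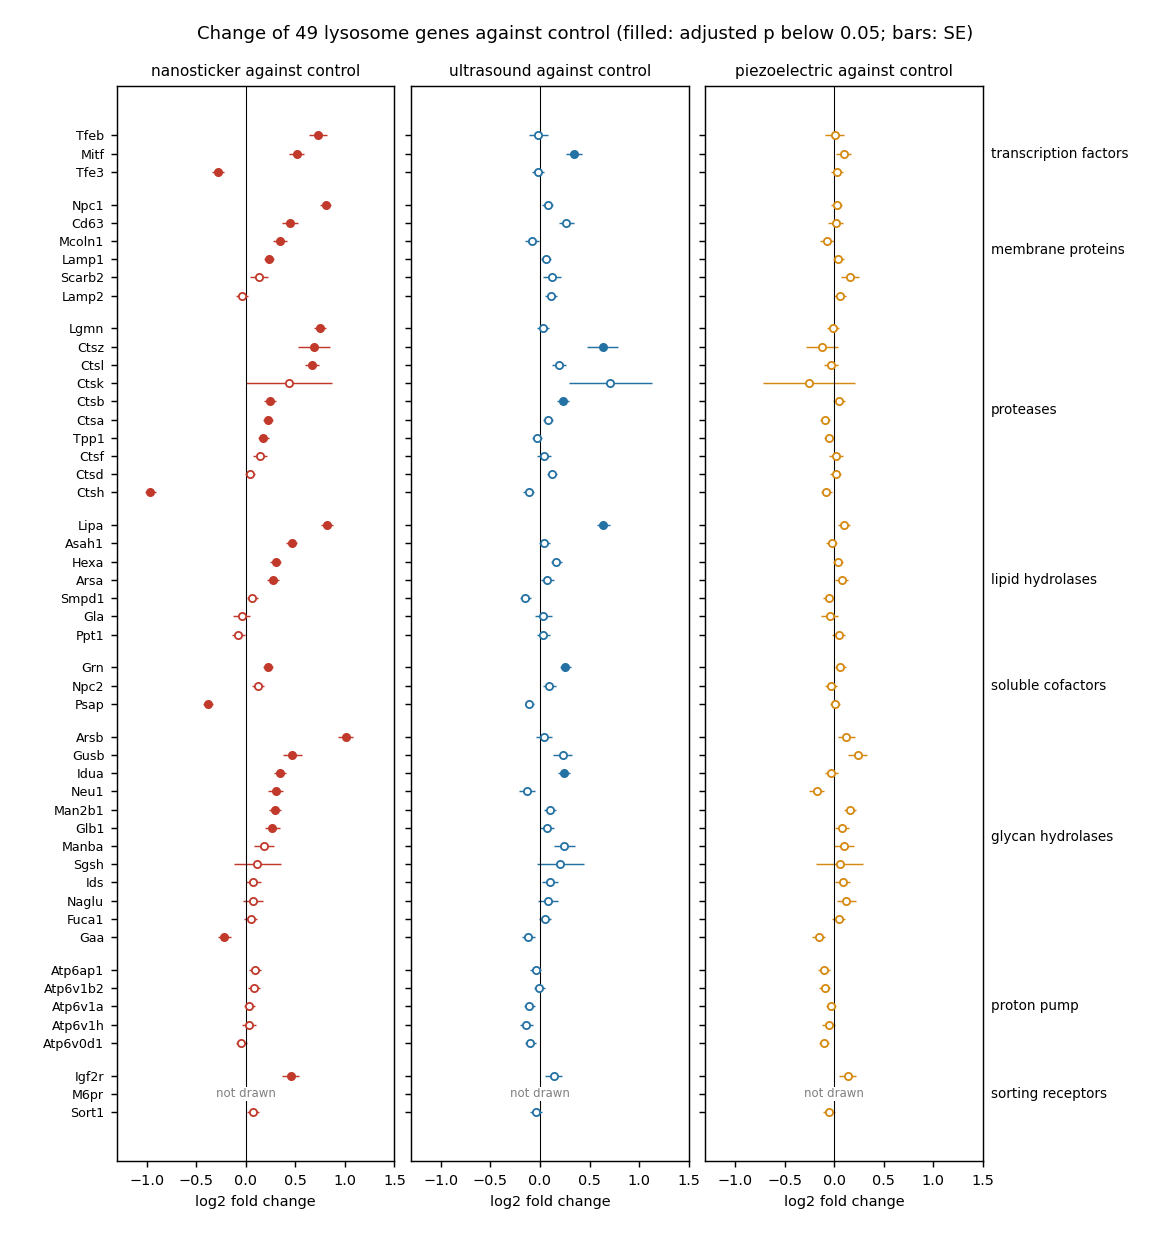
Log2 fold change of the 49 lysosome genes against control in nanosticker, ultrasound and piezoelectric cells, grouped by role, with bars for the standard error and filled points for an adjusted p below 0.05. Filled points lie mostly right of 0 in nanosticker cells, with Ctsh, Psap, Tfe3 and Gaa to the left, 6 are filled in ultrasound cells and none in piezoelectric cells. M6pr is not drawn because its reads are shared with a copy.

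The 3 transcription factors did not move together. Tfeb, the main activator of lysosomal genes, had 20.8 and 22.9 TPM in nanosticker cells, 12.7 and 13.4 TPM in ultrasound cells, 13.6 and 13.7 TPM in piezoelectric cells and 13.0 and 14.5 TPM in control cells. Both nanosticker libraries lay above the other 6, which ran from 12.7 to 14.5 TPM. Tfeb (chromosome 9, 15208141 to 15264101, here and below on the rat build Rnor 6.0) was 1.65-fold higher in nanosticker than in control cells, a log2 fold change of 0.73 ± 0.09 (SE, edgeR adjusted p = 3.67e-05). Mitf, better known as the regulator of pigment cells, stood at 12.2 and 13.3 TPM in nanosticker cells, 10.9 and 11.8 TPM in ultrasound cells, 10.01 and 9.87 TPM in piezoelectric cells and 8.98 and 9.71 TPM in control cells. Nanosticker libraries were highest and did not overlap any other group, ultrasound libraries came next, and control libraries were lowest. Mitf (chromosome 4, 130172484 to 130425496) had a log2 fold change of 0.51 ± 0.08 in nanosticker against control cells (edgeR adjusted p = 0.00021). Tfe3, which acts beside Tfeb on many of the same promoters, went the other way, with 33.8 and 33.0 TPM in nanosticker cells, 40.2 and 39.5 TPM in ultrasound cells, 42.7 and 42.2 TPM in piezoelectric cells and 39.9 and 45.0 TPM in control cells. Both nanosticker libraries were below the other 6. Tfe3 (chromosome X, 15574579 to 15587826) fell by 0.28 on the log2 scale (SE 0.06, edgeR adjusted p = 0.00287). In TPM, Tfe3 was the most abundant of these factors in all 4 groups.

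Of 6 membrane proteins, 4 rose in nanosticker cells and none fell, 66.7% called beside 37.5% of all tested genes. Npc1, which exports cholesterol from the lysosome, had 73.3 and 72.8 TPM in nanosticker cells, 45.4 and 42.5 TPM in ultrasound cells, 43.1 and 44.1 TPM in piezoelectric cells and 40.7 and 45.9 TPM in control cells. The 2 nanosticker libraries nearly coincided and were above the other 6. Npc1 (chromosome 18, 3616878 to 3662656) was 1.75-fold higher than in control cells, with a log2 fold change of 0.81 ± 0.05 (edgeR adjusted p = 1.19e-07). Its annotated span shares 283 bases with the opposite-strand gene Rmc1. Lamp1, a major glycoprotein of the lysosomal membrane, had 1339 and 1339 TPM in nanosticker cells, 1168 and 1198 TPM in ultrasound cells, 1204 and 1199 TPM in piezoelectric cells and 1130.45 and 1227 TPM in control cells. Nanosticker libraries were again above the rest, by a smaller margin. The log2 fold change of Lamp1 (chromosome 16, 81689576 to 81714341) was 0.24 ± 0.05 (edgeR adjusted p = 0.00266). Lamp2, its close relative and the receptor of chaperone-mediated autophagy, had 409 and 383 TPM in nanosticker cells, 452 and 426 TPM in ultrasound cells, 454 and 415 TPM in piezoelectric cells and 408 and 421 TPM in control cells. These ranges overlapped between nanosticker and control cells, and the log2 difference of -0.04 ± 0.06 for Lamp2 (chromosome X, 124722628 to 124766079) did not pass the test (edgeR adjusted p = 0.644). Cd63, a tetraspanin of late endosomes and lysosomes, had a log2 fold change of 0.44 ± 0.08, and Mcoln1, the calcium channel TRPML1 of the lysosome, one of 0.34 ± 0.07. Scarb2, the receptor that brings the enzyme glucocerebrosidase to the lysosome, had 223 and 206 TPM in nanosticker cells and 174 and 233 TPM in control cells and did not pass the test.

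**Figure D3:**
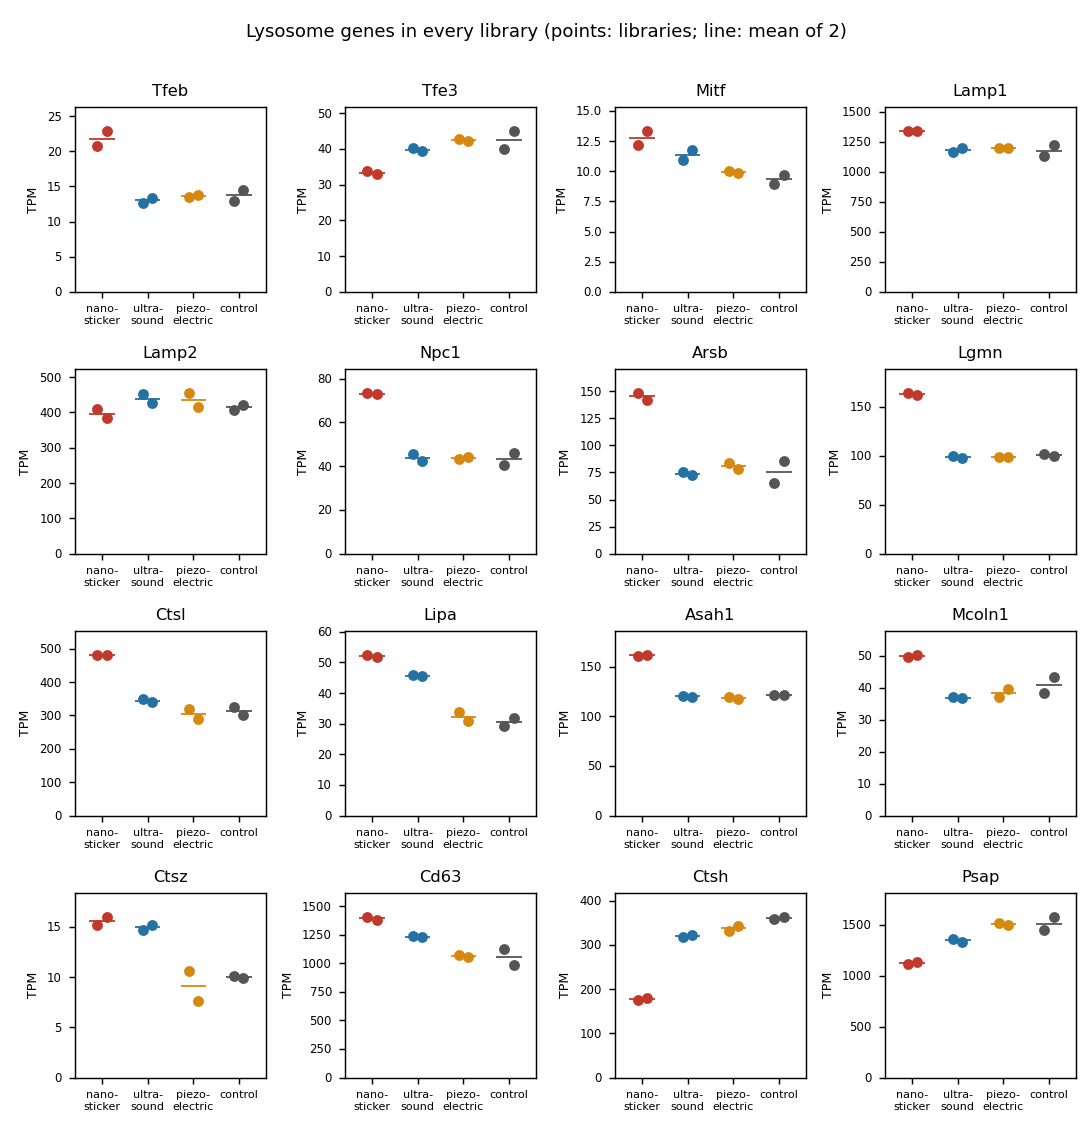
Level in TPM of 16 lysosome genes in every library, 1 point per library and a line at the mean of 2, with nanosticker cells at the left and control cells at the right. Tfeb, Npc1, Arsb, Lgmn and Asah1 are raised in nanosticker cells and near the control level in the other treated groups. Ctsl is raised in nanosticker cells and lies slightly above control in ultrasound cells. Lipa and Ctsz are raised in nanosticker and ultrasound cells, and Ctsh and Psap are lowest in nanosticker cells.

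Among 10 proteases, 6 rose and 1 fell in nanosticker cells, 70% called beside 37.5% of all tested genes. Lgmn, the asparagine-specific protease that also activates cathepsins, had 164 and 162 TPM in nanosticker cells, 99.9 and 97.4 TPM in ultrasound cells, 98.4 and 98.8 TPM in piezoelectric cells and 102 and 99.4 TPM in control cells. The nanosticker libraries stood clear of the other 6, which lay within a narrow band. For Lgmn (chromosome 6, 126282246 to 126308207) the log2 fold change was 0.75 ± 0.06 (edgeR adjusted p = 5.77e-07). Ctsl, the cysteine protease cathepsin L, had 481 and 481 TPM in nanosticker cells, 349 and 339 TPM in ultrasound cells, 319 and 289 TPM in piezoelectric cells and 326 and 301 TPM in control cells, so that its nanosticker libraries were above all others. Its log2 fold change (chromosome 17, 1873105 to 1879266) was 0.67 ± 0.07 (edgeR adjusted p = 7.51e-06). Ctsz, a carboxypeptidase called cathepsin Z, was a low gene at 15.2 and 16.0 TPM in nanosticker cells, 14.7 and 15.2 TPM in ultrasound cells, 10.6 and 7.60 TPM in piezoelectric cells and 10.2 and 9.86 TPM in control cells. Here nanosticker and ultrasound libraries overlapped each other and both were above the piezoelectric and control libraries, and the 2 piezoelectric libraries were far apart. Ctsz (chromosome 3, 172527107 to 172537877) had a log2 fold change of 0.69 ± 0.16 in nanosticker cells (edgeR adjusted p = 0.00424).

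The protease that fell was Ctsh, the aminopeptidase cathepsin H, at 175 and 181 TPM in nanosticker cells, 318 and 322 TPM in ultrasound cells, 332 and 343 TPM in piezoelectric cells and 358 and 363 TPM in control cells. Both nanosticker libraries were far below the other 6, and control libraries were the highest. Ctsh (chromosome 8, 97439155 to 97458293) reached 0.51 of its control level in nanosticker cells, a log2 fold change of -0.96 ± 0.06 (edgeR adjusted p = 4e-08). The microglia markers given above were lower in the same libraries, and their part in the fall of Ctsh was not tested. Ctsb, the cysteine protease cathepsin B, had 637 and 646 TPM in nanosticker cells, 639.79 and 633 TPM in ultrasound cells, 588 and 552 TPM in piezoelectric cells and 577 and 547 TPM in control cells. Its nanosticker and ultrasound libraries overlapped each other and were above all piezoelectric and control libraries. The log2 fold change of Ctsb (chromosome 15, 46316741 to 46339188) in nanosticker cells was 0.25 ± 0.06 (edgeR adjusted p = 0.00569). Ctsa, a carboxypeptidase that also protects other enzymes, and Tpp1, the tripeptidyl peptidase lost in a childhood storage disease, rose by 0.23 and 0.18 on the log2 scale. The call for Tpp1 was lost under DESeq2, without either nanosticker library, with library size alone and in a fit of these groups alone, and that for Ctsb without nanosticker replicate 2. Ctsd, the aspartic protease cathepsin D, and Ctsf, cathepsin F, did not pass the test, at 0.04 ± 0.05 and 0.14 ± 0.07. The whole span of Ctsd lies inside that of Cttn on the same strand, so reads of both could be confused. Ctsk, cathepsin K of bone-resorbing cells, was the lowest of the 49 at 1.12 and 1.84 TPM in nanosticker and 1.35 and 0.9 TPM in control cells, where its difference was not detectable.

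The lipid-degrading enzymes gave 4 rises and no fall among 7, 57.1% called beside 37.5% of all tested genes. Lipa, the acid lipase that frees cholesterol and fatty acids from lipoprotein lipids, had 52.4 and 51.8 TPM in nanosticker cells, 45.9 and 45.5 TPM in ultrasound cells, 33.7 and 30.9 TPM in piezoelectric cells and 29.2 and 32.0 TPM in control cells. Nanosticker libraries were highest, ultrasound libraries came next without overlap, and piezoelectric and control libraries overlapped below them. Lipa was 1.77-fold higher in nanosticker than in control cells, with a log2 fold change of 0.82 ± 0.06 (edgeR adjusted p = 4.05e-07). The annotated span of Lipa (chromosome 1, 252816536 to 252959348) contains Ifit1bl, Ifit2 and Ifit3, whose own levels ran from 0.12 to 2.39 TPM. Asah1, the acid ceramidase, had 161 and 162 TPM in nanosticker cells, 120.24 and 119.71 TPM in ultrasound cells, 119 and 117 TPM in piezoelectric cells and 121 and 121 TPM in control cells, with the nanosticker libraries above the other 6. It rose by 0.46 on the log2 scale (SE 0.05, edgeR adjusted p = 2.23e-05). Hexa, a subunit of beta-hexosaminidase, and Arsa, the sulfatase that degrades the myelin lipid sulfatide, had log2 fold changes of 0.30 ± 0.05 and 0.27 ± 0.06 and also rose. Smpd1, the acid sphingomyelinase, Gla, alpha-galactosidase A, and Ppt1, which removes palmitate from proteins, had values of 0.06 ± 0.05, -0.04 ± 0.08 and -0.08 ± 0.07 and did not pass the test.

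Of 3 soluble cofactors, 1 rose and 1 fell, 66.7% called beside 37.5% of all tested genes. Psap, the precursor of the saposins that present sphingolipids to their hydrolases, had 1112 and 1132 TPM in nanosticker cells, 1366 and 1331 TPM in ultrasound cells, 1517 and 1497 TPM in piezoelectric cells and 1449 and 1578 TPM in control cells. Nanosticker libraries were below all others and ultrasound libraries below the piezoelectric and control libraries. Psap (chromosome 20, 29831302 to 29856876) fell by 0.38 on the log2 scale (SE 0.05, edgeR adjusted p = 4.48e-05). Grn, the precursor of the granulins, had 211 and 214 TPM in nanosticker cells, 225 and 209 TPM in ultrasound cells, 193 and 198 TPM in piezoelectric cells and 186 and 193 TPM in control cells. Nanosticker and ultrasound libraries overlapped and lay above those of piezoelectric and control cells. For Grn (chromosome 10, 90377103 to 90383207) the log2 fold change was 0.22 ± 0.05 in nanosticker cells (edgeR adjusted p = 0.00583), and this call was lost without nanosticker replicate 2. Npc2, which hands cholesterol to Npc1, had a log2 difference of 0.12 ± 0.06 (edgeR adjusted p = 0.163).

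Glycan hydrolases and sulfatases formed the longest group, with 6 rises and 1 fall among 12. That is 58.3% called beside 37.5% of all tested genes. Arsb is a sulfatase in the breakdown of dermatan and chondroitin sulfate. It had 148 and 142 TPM in nanosticker cells and 65.4 and 85.3 TPM in control cells. In ultrasound cells it had 75.7 and 72.3 TPM and in piezoelectric cells 84.0 and 77.9 TPM. Both nanosticker libraries were above the other 6, and the 2 control libraries were well apart. Arsb (chromosome 2, 23385154 to 23543028) was 2.01-fold higher, with a log2 fold change of 1.01 ± 0.08 (edgeR adjusted p = 6.53e-07), the largest rise of the 49 in this comparison. Gaa, the acid alpha-glucosidase that degrades glycogen, had 73.2 and 83.0 TPM in nanosticker cells, 83.8 and 82.7 TPM in ultrasound cells, 81.8 and 85.0 TPM in piezoelectric cells and 87.7 and 101 TPM in control cells. The nanosticker range reached that of ultrasound and piezoelectric cells and stayed below the control libraries. Gaa (chromosome 10, 108395873 to 108412999) fell by 0.22 on the log2 scale (SE 0.07, edgeR adjusted p = 0.02), a call lost without nanosticker replicate 1 and in a fit of these groups alone. Gusb, beta-glucuronidase, rose by 0.47, Idua, alpha-L-iduronidase, by 0.34, Neu1, the sialidase, by 0.30, Man2b1, alpha-mannosidase, by 0.30 and Glb1, beta-galactosidase, by 0.27 on the log2 scale. Calls for Neu1 and Glb1 were lost under DESeq2 and without nanosticker replicate 2. Naglu, Sgsh, Ids, Manba and Fuca1, which act on heparan sulfate, mannosides and fucosides, had log2 differences between 0.05 for Fuca1 and 0.18 for Manba and did not pass the test. Ids lies wholly within the span of Map2k1 on the same strand, and Idua within that of Ccdc18 on the same strand, so that some of their reads could belong to either gene.

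None of the 5 proton pump genes passed the test in nanosticker against control cells. Atp6v0d1 of the membrane sector had 476 and 472 TPM in nanosticker cells and 501 and 514 TPM in control cells. The subunits of the ATP-splitting sector were also close between these groups, Atp6v1a at 98.1 and 98.5 TPM in nanosticker and 93.8 and 105 TPM in control cells and Atp6v1b2 at 130.25 and 139 TPM in nanosticker and 130.50 and 133 TPM in control cells. Atp6v1h and the accessory subunit Atp6ap1 had log2 differences of 0.03 ± 0.07 and 0.09 ± 0.06.

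Of 3 sorting receptors, 1 rose, 33.3% called and thus below the 37.5% of all tested genes. Igf2r, the large mannose 6-phosphate receptor, had 11.2 and 10.6 TPM in nanosticker cells and 7.29 and 9.29 TPM in control cells, a log2 fold change of 0.45 ± 0.09 (edgeR adjusted p = 0.00111). Sort1, the sorting receptor sortilin, had a log2 difference of 0.07 ± 0.06 and did not pass the test. M6pr, the small mannose 6-phosphate receptor, cannot be read on its own. Its estimated counts were 1789 and 878 in nanosticker cells, 948 and 1157 in ultrasound cells, 27.3 and 369 in piezoelectric cells and 938 and 1170.36 in control cells, none of them whole. A gene on chromosome X with an annotated span of the same 9148 bases, LOC100909548, was high wherever M6pr was low, at 509.54 and 1515 in nanosticker cells, 1255 and 1000.24 in ultrasound cells, 2077 and 1743 in piezoelectric cells and 1255 and 1012 in control cells. The sum of both was 2299 and 2393 in nanosticker cells, 2203 and 2157 in ultrasound cells, 2104 and 2112 in piezoelectric cells and 2193 and 2182 in control cells, values that varied far less than those of either gene. As a sum, chosen after these values were seen, M6pr with its copy had a log2 fold change of 0.15 ± 0.05 in nanosticker against control cells (edgeR adjusted p = 0.0421), a call that held without 2 of the 8 libraries when each was left out in turn and was lost without the other 6, with adjusted p from 0.0336 to 0.287.

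Ultrasound alone moved few of the 49. Against control, 6 rose and none fell, 12.2% of the 49, where 7.19% of all tested genes were called, 4.03% as higher and 3.16% as lower. Among genes with a mean count of at least 100 the share was 8.01%. Of the 69 other tested genes of the KEGG lysosome pathway, 1 was called. The 6 of the 49 were Lipa, Ctsz, Mitf, Grn, Idua and Ctsb. Idua, the only 1 of them not yet given by library, had 44.7 and 43.5 TPM in nanosticker cells, 40.9 and 41.1 TPM in ultrasound cells, 36.4 and 34.0 TPM in piezoelectric cells and 34.4 and 37.3 TPM in control cells. Its ultrasound libraries were above the piezoelectric and control libraries and below the nanosticker libraries. Lipa had a log2 fold change of 0.64 ± 0.06 (edgeR adjusted p = 6.67e-05) and Ctsz one of 0.63 ± 0.16 (edgeR adjusted p = 0.0306). Mitf followed at 0.35 ± 0.08 (edgeR adjusted p = 0.0182), Grn at 0.25 ± 0.05 (edgeR adjusted p = 0.0117), Idua at 0.24 ± 0.06 (edgeR adjusted p = 0.0418) and Ctsb at 0.23 ± 0.06 (edgeR adjusted p = 0.0367). In nanosticker against control cells, a comparison with the same 2 control libraries, the values were 0.82 for Lipa, 0.69 for Ctsz, 0.51 for Mitf, 0.22 for Grn, 0.34 for Idua and 0.25 for Ctsb. Of the 6, Lipa alone kept its call under every alternative tried, and in a fit of ultrasound and control cells alone, or without either ultrasound library, it was the only 1 of the 49 called. Without either nanosticker library 3 were called, without control replicate 1, 12, and without control replicate 2, 10. Tfeb, with a log2 difference of -0.02 ± 0.09, and Npc1, with 0.08 ± 0.05, did not pass the test in ultrasound cells. Oligodendrocyte markers were also higher in ultrasound than in control cells, with 5 of 8 called higher and 1 lower, while none of 14 microglia markers was called. Of 11 fibroblast and meningeal markers, 5 were called higher there and 1 lower, led by Lum at 3.57 ± 0.25 on the log2 scale. Calls also fell on 5 of 8 astrocyte markers, 2 higher and 3 lower, on 4 of 8 neural stem cell markers, 2 higher and 2 lower, on 2 of 9 choroid plexus and ependyma markers, both higher, and on 1 of 8 neuron markers, higher. The part of these markers in the rises was not tested.

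Piezoelectric material alone gave no call among the 49 by edgeR or by DESeq2. Only 33 of the 14336 tested genes, 0.23%, were called in this comparison, 0.16% as higher and 0.0698% as lower. At an unadjusted p below 0.05, 4 of the 49 passed, 8.16%, against 8.1% of all tested genes. Leaving out control replicate 2 gave 3 calls among the 49, and leaving out any other library gave none. Some cell type markers were called in piezoelectric against control cells, all as higher. They were 4 of 11 fibroblast and meningeal markers, 2 of 9 choroid plexus and ependyma markers and 1 of 8 astrocyte markers. Ttr of the choroid plexus led at 4.35 ± 0.17 on the log2 scale. No marker on the other lists was called, and the part of these markers was not tested. Nanosticker cells were also set against piezoelectric cells. There 23 of the 49 were higher in nanosticker cells and 3 lower, with 36.4% of all tested genes called. The share called was 53.1% of the 49 and 39.4% of genes with a mean count of at least 100. The largest rises were those of Arsb at 0.88 ± 0.08, Ctsz at 0.81 ± 0.16, Npc1 at 0.78 ± 0.05, Lgmn at 0.76 ± 0.06 and Lipa at 0.72 ± 0.06 on the log2 scale, and the 3 falls were Ctsh at -0.88 ± 0.06, Psap at -0.39 ± 0.05 and Tfe3 at -0.31 ± 0.06. Their edgeR adjusted p ran from 8.54e-08 for Ctsh to 0.0016 for Tfe3. Among proton pump subunits, Atp6v1b2 and Atp6ap1 passed here, at 0.18 ± 0.06 and 0.20 ± 0.06, but both were lost when single libraries were left out.

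Set against ultrasound cells, nanosticker cells had 16 of the 49 higher and 3 lower, with 34.4% of all tested genes called. The share called was 38.8% of the 49, near the 37.6% of genes with a mean count of at least 100. Arsb at 0.97 ± 0.08, Tfeb at 0.74 ± 0.09, Npc1 at 0.73 ± 0.05, Lgmn at 0.72 ± 0.06 and Ctsl at 0.48 ± 0.07 on the log2 scale rose most. Their edgeR adjusted p ran from 3.81e-07 for Npc1 to 0.00015 for Ctsl. Ctsh at -0.85 ± 0.06, Psap at -0.27 ± 0.05 and Tfe3 at -0.27 ± 0.06 fell. No proton pump gene was called. With the length trend removed Atp6v1a, Atp6v1h and Atp6ap1 were called higher, where 5439 of 13090 tested genes were called. Of the 6 genes that rose under ultrasound, Lipa also passed here, at 0.18 ± 0.06 (edgeR adjusted p = 0.0361), a call that held in 11 of 19 alternatives and was lost under DESeq2, with library size alone, with a replicate block and without either nanosticker library, either ultrasound library or piezoelectric replicate 2, with adjusted p up to 0.192. The others, Mitf, Ctsz, Grn, Idua and Ctsb, had differences of 0.17 ± 0.08, 0.06 ± 0.15, -0.03 ± 0.05, 0.10 ± 0.06 and 0.02 ± 0.06 that did not pass the test. The count of 19 fell to 11 without nanosticker replicate 2 or ultrasound replicate 2 and to 12 without nanosticker replicate 1 or ultrasound replicate 1.

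Whether the nanosticker change equals the sum of the other changes was tested as a departure from additivity on the log2 scale, nanosticker minus piezoelectric minus ultrasound plus control. It was above 0 for 11 of the 49 and below 0 for 3, where 23.4% of all tested genes were called. The share called was 28.6% of the 49, near the 25.8% of genes with a mean count of at least 100. Arsb exceeded the sum by 0.84 ± 0.11 (edgeR adjusted p = 0.000153), Tfeb by 0.74 ± 0.13 (edgeR adjusted p = 0.00121), Lgmn by 0.73 ± 0.08 (edgeR adjusted p = 4.1e-05) and Npc1 by 0.70 ± 0.08 (edgeR adjusted p = 2.77e-05). Ctsh fell short of it, with -0.77 ± 0.08 (edgeR adjusted p = 1.71e-05). For Lipa, Ctsz and Mitf the departures of 0.08 ± 0.09, 0.18 ± 0.23 and 0.07 ± 0.11 did not pass the test. None of the 5 proton pump genes was called, though all 5 departures were positive, from 0.15 to 0.24. At an unadjusted p below 0.05 by edgeR, 4 of these 5 passed, against 35% of all tested genes. With the length trend removed all 5 were called, where 4067 of 13090 tested genes were. The count of 14 fell to 9 without ultrasound replicate 1. The labels do not say which treatments the nanosticker cells combine, so the contrast is only a sum of measured differences.

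In control cells the mean TPM of the 49 ran from 1.13 for Ctsk to 1513 for Psap, with a median of 94.1, and the 5 most abundant, Psap, Lamp1, Cd63, Ctsd and Ctsb, made up 50.3% of the summed TPM. In nanosticker cells the same 5 made up 49.5%, but Cd63 came first at 1405 and 1382 TPM, Lamp1 was the second and Psap the third, and these 3 did not overlap. In ultrasound and piezoelectric cells Psap was first, as in control cells. Ctsb at 637 and 646 TPM and Ctsd at 635 and 644 TPM were next in nanosticker cells and overlapped. Ranked by mean TPM, 11 of 48 pairs of neighbours overlapped in nanosticker cells, 10 in ultrasound cells, 13 in piezoelectric cells and 20 in control cells. The largest moves in rank between nanosticker and control cells were those of Ctsh, 14 in nanosticker and 8 in control cells, of Arsb, 20 in nanosticker and 27 in control cells, and of Lipa, 33 in nanosticker and 39 in control cells.

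**Figure D4:**
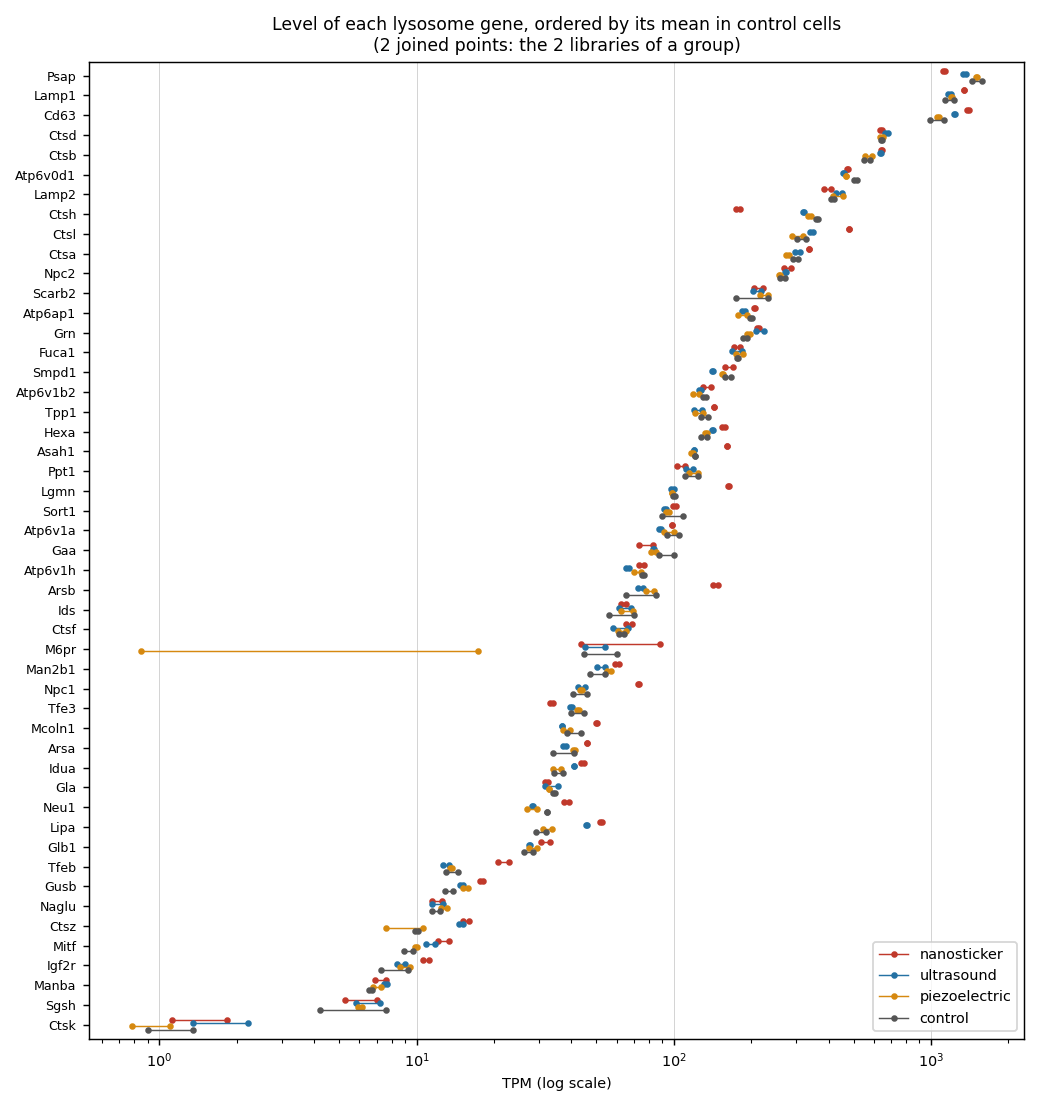
Level in TPM on a log scale of all 49 lysosome genes, ordered by their mean in control cells, with the 2 libraries of a group joined by a line. The groups lie close together for most genes, nanosticker libraries stand to the right for Arsb, Npc1, Lgmn, Lipa and Ctsl and to the left for Ctsh and Psap, and the wide line of M6pr in piezoelectric cells runs from 0.85 to 17.4 TPM.

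Genes that act around the lysosome were counted on 6 further lists. Of 19 genes that sense nutrients at its surface, 5 rose in nanosticker cells and none fell. Fnip2, a partner of folliculin, had 13.2 and 11.7 TPM in nanosticker cells, 6.75 and 6.49 TPM in ultrasound cells, 6.92 and 7.40 TPM in piezoelectric cells and 6.13 and 8.31 TPM in control cells. Its nanosticker libraries were above the other 6, and the log2 fold change against control was 0.88 ± 0.10 (edgeR adjusted p = 1.27e-05). Flcn, folliculin itself, which in complex with Fnip1 or Fnip2 acts on the Rag GTPases that control Tfeb, had 43.9 and 49.3 TPM in nanosticker cells and 34.8 and 39.2 TPM in control cells, a log2 fold change of 0.38 ± 0.07 (edgeR adjusted p = 0.000717). Fnip1 followed with 0.43 ± 0.08 (edgeR adjusted p = 0.000956) and the arginine sensor Slc38a9 with 0.35 ± 0.09 (edgeR adjusted p = 0.00874), the second a call lost under DESeq2. Of 22 autophagy genes, 5 rose and 1 fell. Wipi1, a phosphoinositide-binding protein of the forming autophagosome, rose by 0.37 and Gabarapl1, an Atg8 family protein, by 0.32 on the log2 scale. Nbr1, a cargo receptor, and Pik3c3, the lipid kinase Vps34, rose by 0.22 and 0.30, and their calls were lost in 2 and 4 of 19 alternatives. Of 15 trafficking genes, 1 rose, Gnptab, whose enzyme starts the mannose 6-phosphate tag on hydrolases. Gnptab had 46.5 and 45.6 TPM in nanosticker cells, 24.9 and 24.7 TPM in ultrasound cells, 26.8 and 25.0 TPM in piezoelectric cells and 19.7 and 27.3 TPM in control cells. Nanosticker libraries were above all others, and the log2 fold change was 1.04 ± 0.10 (edgeR adjusted p = 9.38e-06). Set against the 37.5% of all tested genes, the share called was 26.3% for nutrient sensing, 27.3% for autophagy and 6.67% for trafficking, and on the lists that follow it was 52.2% for other enzymes and transporters, 42.9% for other pump subunits and 100% for the 7 inhibitors and galectins.

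Of 23 tested genes for other lysosomal enzymes and transporters, 9 rose and 3 fell in nanosticker cells. Ctsc, the dipeptidyl peptidase cathepsin C, had 136 and 136 TPM in nanosticker cells, 71.3 and 72.2 TPM in ultrasound cells, 56.3 and 56.7 TPM in piezoelectric cells and 60.7 and 61.6 TPM in control cells. Nanosticker libraries were above the other 6, and the log2 fold change was 1.21 ± 0.06 (edgeR adjusted p = 5.43e-09). Laptm4b, a lysosomal membrane protein, rose by 0.45. Ctss, cathepsin S of microglia and macrophages, had 0.22 and 0.68 TPM in nanosticker cells and 3.28 and 2.70 TPM in control cells. Naaa, an acid amidase that hydrolyses fatty acid ethanolamides, had 1.47 and 0.85 TPM in nanosticker cells and 5.78 and 5.94 TPM in control cells. These low genes had the largest falls on the list, -2.64 ± 0.47 for Ctss (edgeR adjusted p = 0.000629) and -2.28 ± 0.31 for Naaa (edgeR adjusted p = 7.14e-05), in the libraries where microglia markers were lowest, whose part was not tested. Of 14 other proton pump subunits, 4 rose and 2 fell, among them Tcirg1, a membrane-sector subunit known from osteoclasts, at -0.85 ± 0.11 (edgeR adjusted p = 3.21e-05), and Atp6v0c, the proton-carrying ring subunit, at 0.25 ± 0.06 (edgeR adjusted p = 0.0047), the second lost without nanosticker replicate 2. Atp6v0a2 and Atp6v1f rose by 0.33 and 0.32 on the log2 scale, and neither kept its call in every alternative. All 7 inhibitors and galectins were called, 4 as higher and 3 as lower. Cst3, the secreted cathepsin inhibitor cystatin C, had 7228 and 7222 TPM in nanosticker cells, 5099.59 and 5489 TPM in ultrasound cells, 4742 and 5047 TPM in piezoelectric cells and 4915 and 4968 TPM in control cells, with a log2 fold change of 0.61 ± 0.06 (edgeR adjusted p = 7.43e-06). Lgals1 and Lgals3, galectins of which the second gathers on damaged lysosomes, rose by 1.31 and 0.44, and the cystatin Cst6 fell to 0.72 and 0.9 TPM in nanosticker cells, against 3.66 and 3.20 TPM in control cells. Under ultrasound, 4 of the 100 tested genes of the 6 lists were called, a share of 4% where that of all tested genes was 7.19%. They were Lgals1 at 1.02 ± 0.09 (edgeR adjusted p = 5.74e-05), Lgals3 at 0.73 ± 0.08 (edgeR adjusted p = 9.54e-05), Ctsc at 0.28 ± 0.06 (edgeR adjusted p = 0.00994) and Naaa at -0.99 ± 0.27 (edgeR adjusted p = 0.0454). Piezoelectric material alone gave no call on these lists.

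**Figure D5:**
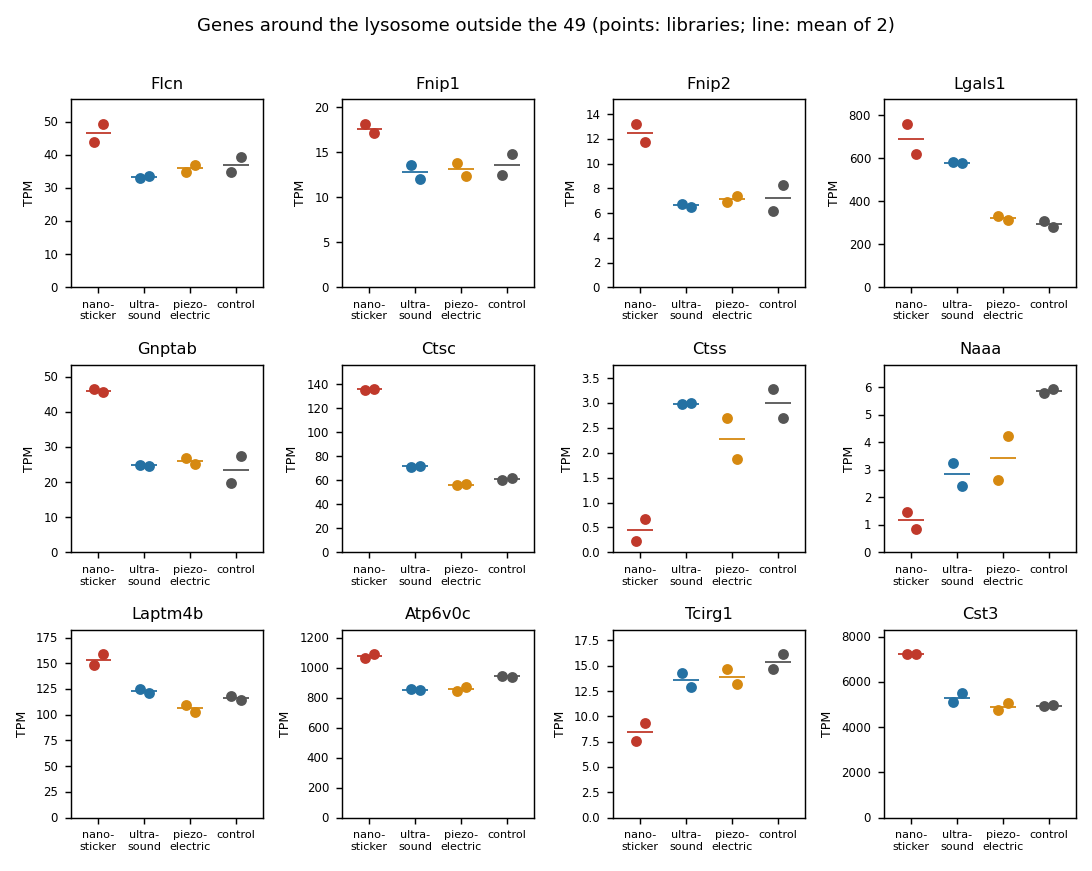
Level in TPM of 12 genes that act around the lysosome and are not among the 49, 1 point per library and a line at the mean of 2, with nanosticker cells at the left and control cells at the right. Flcn, Fnip1, Fnip2, Gnptab, Ctsc and Cst3 are highest in nanosticker cells, Lgals1 is raised in nanosticker and ultrasound cells, and Ctss, Naaa and Tcirg1 are lowest in nanosticker cells.

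The authors' deposited table holds their own DESeq2 results for the same comparisons. At a q-value below 0.05 it calls 18 of the 49 in nanosticker against control cells, and edgeR called each of those 18 as well. The edgeR calls it does not share are those of Tfe3, Mcoln1, Ctsz, Grn, Gusb, Arsa, Gaa, Neu1, Glb1 and Tpp1. Their DESeq2 q-values there ran from 0.057 for Mcoln1 to 0.237 for Tpp1. The deposited table calls 1 in ultrasound against control cells and 0 in piezoelectric against control cells, where edgeR called 6 and 0. Against piezoelectric cells it calls 25, all of them among the 26 of edgeR, and against ultrasound cells 18, of which 16 are among the 19 of edgeR.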

How the data were processed

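Polyadenylated RNA of 8 samples was sequenced as DNA nanoballs after random-hexamer priming, per the labels' protocols. The authors deposited 1 table with an estimated count, an FPKM and a TPM per gene and library, per the file headers. Of the deposited estimated counts, 10.5% are not whole at a tolerance of 0.005. The deposited TPM values, which the authors scaled for length and library, served as levels, and the FPKM the authors deposited gave effective lengths only. The log2 fold changes and the p-values and q-values in the deposited table are the authors' DESeq2 results, per the file headers. Coordinates are the deposited ones, on Rnor 6.0 according to the submitters' processing notes. Which aligner and quantifier were used, and whether counting was by strand, is not given in the sources used here. Of the 49 genes, 11 overlap another gene. A deposited correlation matrix was not used.

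Counts were rounded and fitted in R 4.3.3 with edgeR 4.0.16 (filterByExpr, TMM, robust quasi-likelihood, 1 mean per group over all 8 libraries, 4 residual degrees of freedom, biological coefficient of variation 7.09%). Tests were two-sided, adjusted by Benjamini-Hochberg over the 14336 genes tested, with a threshold of 0.05. Errors given with log2 fold changes are standard errors. The steps were also run on simulated counts with the same dispersion for all genes and no trend with length. That run therefore does not cover the trend seen in the control libraries. Depth limits precision for genes with few counts such as Ctsk.

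The genes, their roles and the further lists (101 of 104 symbols found, with 75 of 75 cell type markers) were chosen with earlier results of these data known, so their counts are descriptions beside the share of all genes called. Values by library are given for Tfeb, Tfe3, Mitf, Lamp1, Lamp2 and for the 8 largest called rises and falls in each comparison with control, 5 in the others. Up to 4 called genes of each further list were chosen by smallest adjusted p, some given by library and others by log2 fold change alone. A few others were added after their values were seen. Statements that libraries lie above, below or apart from others are descriptions, not tests. Members separated in this way also between piezoelectric and control cells, where none of them was called. No label says that samples with the same replicate number share a batch, so they were not paired in the main fit. Correlations of same-numbered deviations ran from -0.18 to 0.21 between groups, which cannot show whether such a batch exists. Alternatives were DESeq2 1.42.0, limma-voom (limma 3.58.1), other scalings and filters, a replicate block, removal of the trend with length (lowess, span 0.3), genes with whole counts, fits of the compared groups alone, and fits without 1 library, where a lone library is assumed to vary like the other groups.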

Additional observations from a re-analysis of the deposited data

Results flagged for a closer look

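In 14 of the 49 genes the nanosticker change differed from the sum of the piezoelectric and ultrasound changes, by a test of that difference itself (edgeR, adjusted p below 0.05 over all tested genes, 23.4% of which passed). These genes are 28.6% of the 49, near the 25.8% that passed among genes with a mean count of at least 100. Values are log2 departures. For 11 genes the departure was positive. It was 0.84 for Arsb (edgeR adjusted p = 0.000153), 0.74 for Tfeb (0.00121), 0.73 for Lgmn (4.1e-05), 0.70 for Npc1 (2.77e-05), 0.61 for Neu1 (0.00159), 0.51 for Ctsl (0.00226), 0.50 for Mcoln1 (0.00275), 0.44 for Asah1 (0.0011), 0.27 for Smpd1 (0.0223), 0.26 for Tpp1 (0.0243) and 0.23 for Ctsa (0.0307). For 3 it was negative, at -0.77 for Ctsh (edgeR adjusted p = 1.71e-05), -0.29 for Tfe3 (0.0272) and -0.28 for Psap (0.00944). The calls for Ctsa, Smpd1, Tpp1, Tfe3 and Psap were each lost in at least 1 fit that left out a library, and those for the other 9 held in all 8 such fits.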

How the results depend on the processing

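Counts of called lysosome genes moved by over 1.5 times in these cases. In ultrasound against control cells, 6 became 3 with a replicate block, 12 after removal of the trend with length and 1 in a fit of those groups alone, and the departure from additivity went to 23, against 14, after removal of that trend, which tests 13090 genes. With each library left out in turn, the counts ran from 23 to 31 in nanosticker against control, 1 to 12 in ultrasound against control, 0 to 3 in piezoelectric against control, 19 to 32 in nanosticker against piezoelectric, 11 to 28 in nanosticker against ultrasound and 9 to 21 for the departure. A block on the replicate number, which no label ties to a batch, left 28 calls in nanosticker against control and changed no direction among the called genes. Crossing the control numbers, chosen after the data were seen, gave 28 calls there and 7 in ultrasound against control. Of the 28 calls in nanosticker against control, 25 held under DESeq2, 28 under limma-voom and relative log expression scaling, and 27 with library size alone. Over all tested genes, the 1031 calls in ultrasound against control were 636 under DESeq2, 1557 after removal of the length trend, 478 in a fit of those groups alone and 377 to 2192 with a library left out. The 33 in piezoelectric against control ran from 10 in a fit of those groups alone to 1131 without control replicate 2, the 4938 in nanosticker against ultrasound fell to 3199 without ultrasound replicate 1, and the 3350 departures were 2201 under DESeq2. Changes of sign in log2 fold changes occurred only below the threshold. Tfeb in piezoelectric against control cells became -0.0062 with library size alone, -0.017 without piezoelectric replicate 2 and -0.024 without control replicate 1, and fits without 1 library reached 0.034. Tfeb in ultrasound against control cells became 0.041 without ultrasound replicate 1 and 0.011 without control replicate 2, in a range of -0.078 to 0.041. Tfe3 became -0.013 in piezoelectric cells without control replicate 1 (range to 0.063) and 0.022 in ultrasound cells without control replicate 2 (range from -0.054), and Lamp2 became 0.00041 in nanosticker cells without nanosticker replicate 2 (range from -0.080). The cause of these moves was not tested. A planned description of promoter motifs was not run, since no promoter sequences were used here.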

Other observations

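Further genes that the authors' annotation places in the KEGG lysosome pathway are given here as values, chosen after they were seen. Abca2, a lipid transporter of endosomes and lysosomes that is abundant in oligodendrocytes, had 107 and 109 TPM in nanosticker cells, against 51.1 and 66.7 TPM in control cells, a log2 fold change of 0.94 ± 0.08 (edgeR adjusted p = 4.63e-06). Ap1s1, a small subunit of the adaptor complex that sorts cargo at the trans-Golgi network, rose by 0.63, whereas Ap1s2, another small subunit of that complex, had -0.58 ± 0.07 and fell. Laptm5, a lysosomal membrane protein of blood-derived cells, had 0.38 and 0.89 TPM in nanosticker cells, against 4.57 and 4.73 TPM in control cells, a log2 fold change of -2.81 ± 0.36 (edgeR adjusted p = 5.94e-05). The microglia and macrophage marker Cd68, a lysosomal glycoprotein, had 3.00 and 2.50 TPM in nanosticker cells, against 5.00 and 5.38 TPM in control cells. Oligodendrocyte markers were highest and microglia markers lowest in the same nanosticker libraries, and their part in these values was not tested.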
